A study of Mus musculus with 18 samples.

Results

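The basal difference between APC-deleted and APC-intact MC38 cells was measured by comparing the RNA of 3 untreated APC-deleted libraries with that of 3 untreated APC-intact libraries, 6 of the 18 libraries of the series. MC38 is a colon adenocarcinoma line derived from C57BL6 mice, and the study asked what knockdown of TDO2, tryptophan 2,3-dioxygenase, does in these cells with and without APC. The 6 libraries were taken by their titles, and neither group had received doxycycline. Read counts were given for 39179 genes, of which 25225 had at least 1 count in the 18 libraries and 15006 had enough counts to be tested. Genes on chromosome X were fitted but are not described, which left 14493 tested genes.

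The untreated APC-deleted group is a single APC-deleted line, and the untreated APC-intact group is the MC38 line it is isogenic with. All cells grew in medium with serum approved for tetracycline-controlled systems. The titles name the inducible shTDO2 hairpin in the treated libraries only, whereas the labels' protocol speaks of hairpin-carrying cells with and without doxycycline, so whether the untreated cells carried the hairpin cannot be told here. Each group is labelled as a biological triplicate, but separate cultures are not stated. A p-value here therefore reflects only how far samples of the same group spread, estimated over all 18 libraries of the series together. That spread may be technical. With 1 line for each genotype, the loss of APC and any other difference between the lines cannot be told apart. A further 3 APC-deleted and 3 APC-intact libraries, from hairpin cells given 1 µM doxycycline for 48 h, serve below as separate libraries in which the same line difference was measured. The names of the deposited tables give all 6 untreated libraries 1 run designation and the 48 h libraries another, so doxycycline, hairpin and run cannot be told apart between those sets.

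APC is the scaffold of the cytoplasmic complex in which the kinases GSK3 and CK1 mark beta-catenin for degradation. When Wnt proteins bind their Frizzled and LRP receptors, or when APC is lost, beta-catenin escapes this complex, enters the nucleus and acts with TCF and LEF factors on target genes. In the intestine this pathway maintains stem cells at the crypt base, and loss of APC is the usual first step of colorectal adenomas.

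The libraries held between 90873656 and 97728594 gene counts in APC-deleted cells and between 92387854 and 96007240 in APC-intact cells. Between 4.70% and 4.99% of the counted reads fell outside any gene in APC-deleted cells, against 5.25% to 6.12% in APC-intact cells, and that share's part in the results was not tested. Levels are given as CPM, gene counts scaled to a library size of 1e6 after TMM normalisation, as mean ± SD over n = 3 libraries in each group. Differences are log2 of APC-deleted over APC-intact with their standard error, and a gene is called when its p from edgeR's quasi-likelihood test, adjusted by the Benjamini-Hochberg method over all tested genes, was under 0.05. Apc itself, the deleted gene, had 74.0, 79.5 and 72.2 CPM in APC-deleted cells, against 116, 95.9 and 123.1 CPM in APC-intact cells. The groups did not overlap, and Apc RNA was lower but still present in the APC-deleted libraries (log2 difference -0.57 ± 0.12, adjusted p = 0.00241). Which part of Apc was deleted is not given in the sources used here, so counts over the whole gene check the label only in part. Tdo2, the hairpin's target, had 0.291, 0.0623 and 0.144 CPM in APC-deleted cells, against 0.284, 0.235 and 0.165 CPM in APC-intact cells, and it was not called (adjusted p = 0.529). Ctnnb1, which encodes beta-catenin, had 604, 588 and 585 CPM in APC-deleted cells, against 584, 577 and 574 CPM in APC-intact cells, a log2 difference of 0.03 that did not pass the test (adjusted p = 0.65). Its APC-deleted values lay just above the APC-intact ones, and it lies partly over Ulk4 on the other strand. Whether strand was used in counting is not given in the sources used here. Reads that fit more than 1 gene formed an ambiguous entry that was left out, 2.07% to 2.11% of counts in these 6 libraries. Counts of this gene and of the other overlapping pairs named below are therefore uncertain, and the size of that effect was not tested.

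The label of a colon carcinoma line was set against marker genes. Of 20 colon epithelium markers looked up, 6 had no count in any of the 6 libraries, among them Epcam, a surface protein of epithelial cells, and Cdx2, the intestinal homeobox factor. Of these markers 6 had enough counts to be tested. The summed level of all 20, which have 22 gene entries, was 7.41 to 7.51 CPM in APC-deleted cells and 5.36 to 6.28 CPM in APC-intact cells. The summed level of 16 fibroblast and smooth muscle markers was 6525 to 7139 CPM in APC-deleted cells and 6491 to 6702 CPM in APC-intact cells. Most of it came from Vim, Col1a1, Col1a2, Col3a1, Dcn and S100a4. Other members were nearly absent. Acta2 had 32 counts in APC-deleted and 27 in APC-intact libraries, and in the same order Myh11 had 31 and 38 and Cnn1 had 7 and 18. Likewise Fap had 54 and 38, and Thy1 had 1 and 0. The cells are therefore called by their line name below. The bulk counts cannot tell a smaller share of cells expressing a gene from less of its RNA in each cell. Of 14 T and B cell markers 3 were tested and all 3 were called, beside 26.9% of all tested genes. The list's summed level was 8.35 to 9.85 CPM in APC-deleted cells and 12.7 to 13.1 CPM in APC-intact cells. Lck, a kinase of T cell receptor signalling, had 2239 counts in APC-deleted and 1254 in APC-intact libraries, and Cd79a, a B cell receptor subunit, had 275 and 99 in the same groups. Cd28, a costimulatory receptor of T cells, had 9 counts in APC-deleted and 2246 in APC-intact libraries. The pan-leukocyte marker Ptprc had 2 counts in APC-deleted and 6 in APC-intact libraries, and the T cell markers Cd2 and Cd8a had none in either group. Of 12 myeloid markers 6 were tested, and 1 rose and 2 fell, beside 13% and 13.9% of all tested genes. This list's summed level was 34.2 to 38.1 CPM in APC-deleted cells and 33.2 to 36.2 CPM in APC-intact cells. Most of that sum was Cd68, a lysosomal glycoprotein, with 5737 counts in APC-deleted and 4294 in APC-intact libraries, and Cd14, a coreceptor for bacterial lipopolysaccharide, with 3917 counts in APC-deleted and 4858 in APC-intact libraries. The myeloid markers Emr1 and Tyrobp had none in either group. Of 10 endothelial markers 3 were tested and 1, Cdh5, fell, beside 13.9% of all tested genes called lower. The summed level of the 10 was 3.09 to 4.17 CPM in APC-deleted cells and 5.72 to 6.36 CPM in APC-intact cells. Cdh5, the cadherin of endothelium, had 678 counts in APC-deleted and 1347 in APC-intact libraries, while Emcn and Erg had none in either group. The part of such cells in the results was not tested.

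**Figure D1:**
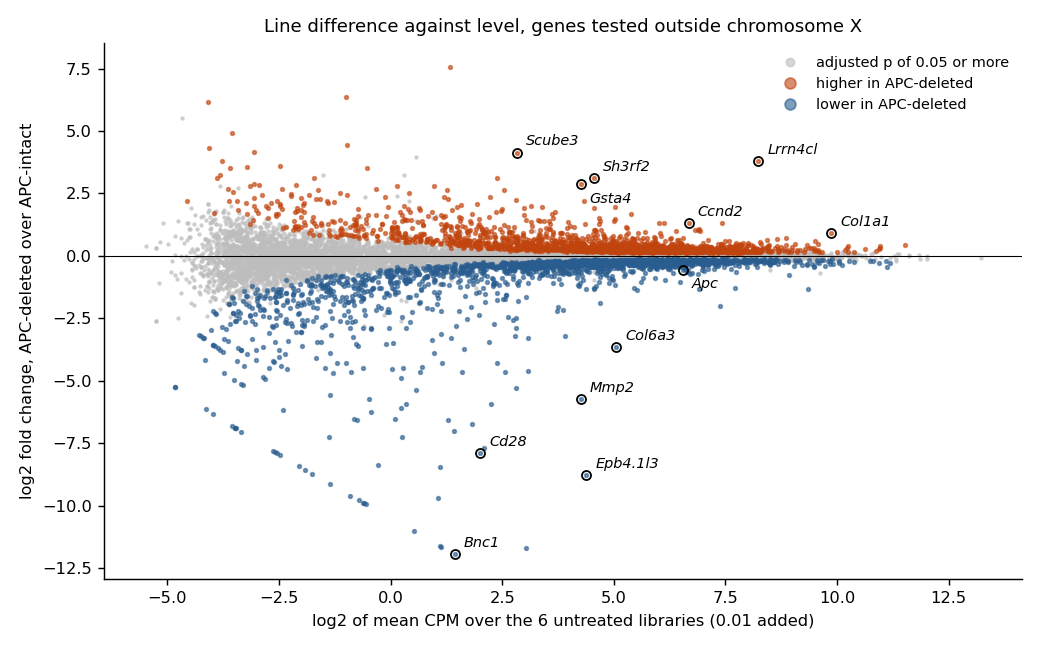
Each of the 14493 tested genes is a point, with its mean level in log2 CPM (0.01 added) on the horizontal axis and the log2 difference of APC-deleted over APC-intact untreated cells on the vertical axis, and called genes are coloured by direction. The calls are near even in number, 1877 higher and 2019 lower, while the largest differences lie below 0, with 84 called genes at -4 or less and 8 at 4 or more.

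The lines differed in 3896 genes, 26.9% of those tested. Of these, 1877 were higher in APC-deleted cells (13%) and 2019 were lower (13.9%). By GENCODE gene type, 1805 of 12123 tested protein-coding genes were higher and 1867 lower, against 11 and 21 of 849 processed pseudogenes. The share of all tested genes given beside gene lists below thus includes such seldom called types. The median log2 difference over all tested genes was -0.01, and 90% of them lay between -0.91 and 0.67. Most called differences were small, with a median size of 0.34 on the log2 scale, and 717 called genes, 4.95% of those tested, differed by at least 1. The CPM of the groups did not overlap for 7103 genes, 49% of those tested. Among the 3896 called genes they did not overlap for 3849, so a lack of overlap adds little to a call.

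Falls outnumbered rises among the larger called differences. With a log2 size of at least 1, 259 genes were higher and 458 were lower in APC-deleted cells, and with a size of at least 2, 66 were higher and 229 were lower. Among called genes with at least 5 CPM in the higher group, 74 were higher and 77 were lower at a size of at least 1, 10 and 32 at a size of at least 2, and 1 and 14 at a size of at least 4. There were 17 genes under 1 CPM in APC-deleted cells and at or over 5 CPM in APC-intact cells, against 1 gene with the opposite pattern.

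Some genes expressed in the APC-intact line gave no RNA in the APC-deleted line, and 22 of them had no count in any APC-deleted untreated library and at least 10 counts in every APC-intact one. This rule was set after the values were seen. No gene showed the mirror pattern. These 22 genes lay on 12 chromosomes, all were called, and 15 of them also had no count in the 3 APC-deleted libraries at 48 h, where the other members had under 10 counts in all. The window before the annotated start of 3 genes that were lost or nearly so and of the gene with the largest rise among those with at least 5 CPM is shown so that their CpG content can be read directly. Each runs 5′ to 3′ on the gene's strand over the 250 bases before the start, from RefSeq on GRCm38.p6, with CpG pairs in capitals. Bnc1 lies at chr7:81992300-81992549 on the minus strand, Adamts9 at chr6:92943535-92943784 on the minus strand, Epb4.1l3 at chr17:69156494-69156743 on the plus strand and Scube3 at chr17:28142059-28142308 on the plus strand. Epb4.1l3 is named Epb41l3 in RefSeq and has several starts.
Bnc1: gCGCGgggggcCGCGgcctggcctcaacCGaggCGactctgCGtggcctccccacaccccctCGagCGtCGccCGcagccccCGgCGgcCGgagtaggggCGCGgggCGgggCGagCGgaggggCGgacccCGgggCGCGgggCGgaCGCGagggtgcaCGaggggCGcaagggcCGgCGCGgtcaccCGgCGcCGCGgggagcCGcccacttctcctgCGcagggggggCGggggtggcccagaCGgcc
Adamts9: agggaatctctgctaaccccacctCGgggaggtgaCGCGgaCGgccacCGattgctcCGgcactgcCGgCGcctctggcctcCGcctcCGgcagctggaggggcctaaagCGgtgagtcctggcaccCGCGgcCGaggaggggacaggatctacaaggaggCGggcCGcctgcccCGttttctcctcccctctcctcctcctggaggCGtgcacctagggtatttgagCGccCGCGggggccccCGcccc
Epb4.1l3: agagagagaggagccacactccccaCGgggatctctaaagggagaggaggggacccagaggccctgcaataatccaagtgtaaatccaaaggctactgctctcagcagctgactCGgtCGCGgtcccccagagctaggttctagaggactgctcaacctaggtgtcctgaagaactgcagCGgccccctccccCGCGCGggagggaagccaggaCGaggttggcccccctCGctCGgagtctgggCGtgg
Scube3: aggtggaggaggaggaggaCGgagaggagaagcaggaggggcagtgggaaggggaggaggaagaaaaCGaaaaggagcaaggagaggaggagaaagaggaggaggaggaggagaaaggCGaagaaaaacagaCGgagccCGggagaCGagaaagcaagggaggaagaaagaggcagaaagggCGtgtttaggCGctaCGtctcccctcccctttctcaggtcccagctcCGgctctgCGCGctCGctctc

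The Bnc1 window held 39 CpG pairs at 83.6% G and C, the Adamts9 window 22 at 71.2%, the Epb4.1l3 window 12 at 62.8% and the Scube3 window 13 at 59.6%. The median over all 10173 tested genes with a window was 16 CpG pairs, and over the 19 silent genes with one it was 13. Genes called with a large difference had fewer in either direction, with a median of 6 in the 42 windows of genes at a log2 difference of 2 or more and 8 in the 163 windows of genes at -2 or less. The number did not keep falling with the size of the fall, since the median was 11 in the 65 windows of genes at -4 or less. These medians describe the windows and were not tested.

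Bnc1, a zinc finger factor of basal keratinocytes and germ cells, had no count in the 3 APC-deleted libraries, against 498, 503 and 516 counts in the APC-intact libraries. With 3 counts over the group taken as the floor, it was at least 501-fold lower in APC-deleted cells. Ptprk, a receptor tyrosine phosphatase of cell contacts, had no count in APC-deleted cells, against 434, 382 and 408 counts in APC-intact cells, at least 404-fold lower. Adamts9, a secreted protease that cleaves versican, had no count in APC-deleted cells, against 368, 351 and 494 counts in APC-intact cells, at least 401-fold lower. That every APC-intact library held reads of these 3 genes and no APC-deleted library did was set by the rule that picked them. Others of the 22 were Cbr3, a carbonyl reductase, at least 264-fold lower, Nt5e, the ecto-enzyme that makes adenosine from AMP, at least 119-fold lower, and Batf, an AP-1 family factor of lymphocytes, at least 97.7-fold lower. Slc6a3, the dopamine transporter, was at least 53.2-fold lower, and Plagl1, an imprinted zinc finger factor, at least 29.4-fold lower.

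A second set kept a trace of RNA. Epb4.1l3, which encodes a membrane-skeleton protein that links receptors to actin, had 0.0755, 0.0415 and 0.166 CPM in APC-deleted cells, against 42.8, 41.0 and 41.2 CPM in APC-intact cells (log2 difference -8.78 ± 0.27, adjusted p = 2.55e-19). Mmp2, the secreted gelatinase, had 0.711, 0.664 and 0.732 CPM in APC-deleted cells, against 40.2, 36.8 and 36.05 CPM in APC-intact cells (log2 difference -5.74 ± 0.16, adjusted p = 3.47e-16). Chst15, a sulfotransferase that acts on chondroitin sulfate, had 0.345, 0.332 and 0.355 CPM in APC-deleted cells, against 13.2, 14.0 and 13.7 CPM in APC-intact cells (log2 difference -5.31 ± 0.14, adjusted p = 1.95e-16). These genes were named among the largest falls, and no overlap between groups was required for that. Slco2a1, the transporter that takes up prostaglandins, had 0.647, 0.654 and 0.699 CPM in APC-deleted cells, against 15.9, 15.7 and 17.1 CPM in APC-intact cells (log2 difference -4.61 ± 0.21, adjusted p = 4.52e-12). Ulbp1, a ligand of the natural killer receptor NKG2D, had 0.625, 0.426 and 0.477 CPM in APC-deleted cells, against 9.73, 10.3 and 9.47 CPM in APC-intact cells (log2 difference -4.27 ± 0.18, adjusted p = 2.14e-13). Sod3, the extracellular superoxide dismutase, fell by 4.66 on the log2 scale, and Cd302, a C-type lectin receptor, by 7.02.

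**Figure D2:**
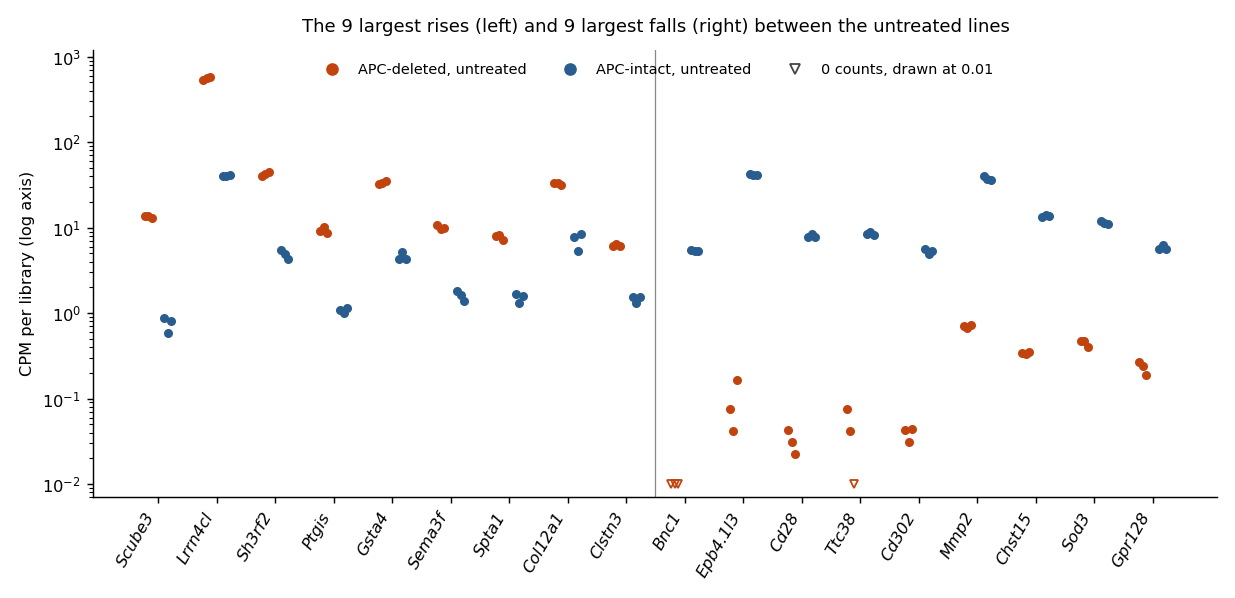
Points give the CPM of single untreated libraries on a log axis, APC-deleted beside APC-intact, for the 9 largest rises on the left and the 9 largest falls on the right among called genes with at least 5 CPM in the higher group and no overlap between groups; libraries without a count are drawn as open triangles at 0.01. The 3 points of a group do not lie close together in every gene, as the APC-deleted points of Epb4.1l3 show. The falls span a wider range than the rises.

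Among genes with at least 5 CPM in the higher group, the largest rises were in Scube3, Lrrn4cl and Sh3rf2. Scube3, which encodes a secreted EGF-domain protein, had 13.8, 13.7 and 13.0 CPM in APC-deleted cells, against 0.885, 0.588 and 0.816 CPM in APC-intact cells (log2 difference 4.14 ± 0.11, adjusted p = 6.08e-16). Lrrn4cl, a membrane protein with a fibronectin domain, had 536, 566 and 582 CPM in APC-deleted cells, against 40.6, 40.0 and 41.3 CPM in APC-intact cells (log2 difference 3.79 ± 0.061, adjusted p = 4.28e-19). Sh3rf2, a ubiquitin ligase that restrains JNK signalling, had 40.2, 41.9 and 44.7 CPM in APC-deleted cells, against 5.45, 4.88 and 4.30 CPM in APC-intact cells (log2 difference 3.12 ± 0.080, adjusted p = 4.44e-16). No overlap between groups was required of the genes named as the largest rises. Ptgis, prostacyclin synthase, had 9.07, 10.1 and 8.69 CPM in APC-deleted cells, against 1.08, 1.01 and 1.15 CPM in APC-intact cells (log2 difference 3.10 ± 0.13, adjusted p = 4.09e-13). Klra1, a member of the natural killer lectin receptor cluster, was just under the 5 CPM minimum and was picked after its values were seen. It had 4.55, 4.84 and 5.49 CPM in APC-deleted cells, against 0.0328, 0.0321 and 0.0103 CPM in APC-intact cells (log2 difference 7.56 ± 0.44, adjusted p = 3.91e-14). Reads that aligned to more than 1 place were left out, so counts of that cluster's similar members may lack shared reads.

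Above beta-catenin in the Wnt pathway, ligands and Frizzled receptors were among the genes called higher, and the receptor Lgr6 and the secreted protein Dkk3 were called lower. Of 9 tested Wnt ligands, 5 rose and none fell, beside 13% and 13.9% of all tested genes, and the ligands' median was 0.45, or 0.67 without APC-intact replicate 3. Wnt5a, a ligand of the branch that does not act through beta-catenin, had 54.9, 51.1 and 53.7 CPM in APC-deleted cells, against 34.7, 32.5 and 34.2 CPM in APC-intact cells (log2 difference 0.65 ± 0.059, adjusted p = 4.97e-08). Wnt6 had 6.63, 5.24 and 7.11 CPM in APC-deleted cells, against 3.40, 2.96 and 3.09 CPM in APC-intact cells (log2 difference 1.01 ± 0.18, adjusted p = 2.68e-04). The ranges did not overlap in either gene, and Wnt9a rose by 0.45. Wnt11 was low, with 0.535 ± 0.0600 CPM in APC-deleted cells and 0.110 ± 0.0408 CPM in APC-intact cells, and rose by 2.27 on the log2 scale. Wnt5b was also low, with 1.196 ± 0.178 CPM in APC-deleted cells and 0.385 ± 0.0825 CPM in APC-intact cells, and rose by 1.63.

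Among 14 tested Wnt receptors and co-receptors 7 rose and 2 fell, 64.3% called beside 26.9% of all tested genes. Fzd7 and Fzd6, both Frizzled receptors, rose by 0.43 and 0.32, and Ptk7, a co-receptor of planar cell polarity, by 0.38. Fzd6 lies partly over Gm26704. Lgr4, a receptor for the R-spondins that enhance Wnt signals, had 28.0, 30.6 and 31.3 CPM in APC-deleted cells, against 21.97, 19.6 and 21.3 CPM in APC-intact cells (log2 difference 0.52 ± 0.087, adjusted p = 1.47e-04). Its relative Lgr6 had 2.65, 2.52 and 1.83 CPM in APC-deleted cells, against 8.33, 7.63 and 8.08 CPM in APC-intact cells (log2 difference -1.78 ± 0.11, adjusted p = 1.76e-10). These 2 R-spondin receptors thus moved in opposite directions without overlap. Ror1, a receptor kinase and the other receptor called lower, had no count in the APC-deleted libraries and 26 counts over the APC-intact ones, at least 8.59-fold lower, and lost its call without APC-deleted replicate 1, 2 or 3 or APC-intact replicate 1, which leaves 1 receptor lower.

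Of 7 tested secreted Wnt modulators 3 rose and 2 fell, 71.4% called beside 26.9% of all tested genes. Dkk3, a Dickkopf-family secreted protein, had 24.9, 24.9 and 26.1 CPM in APC-deleted cells, against 63.4, 63.2 and 59.7 CPM in APC-intact cells (log2 difference -1.29 ± 0.060, adjusted p = 2.34e-12). The APC-deleted libraries lay below the APC-intact ones, and Frzb, a secreted decoy for Wnt proteins, rose by 1.34. Of the nuclear partners, Tcf7 and Tcf7l1, TCF-family factors, rose by 0.44 and 0.47, and Pygo1, a coactivator that binds through BCL9, had 7.78 ± 0.301 CPM in APC-deleted cells and 13.1 ± 0.376 CPM in APC-intact cells (log2 difference -0.75 ± 0.065, adjusted p = 2.34e-08). Tcf7l1 lies partly over Gm15401 on the other strand. Of 13 tested TCF factors and partners 5 rose and 2 fell, 53.8% called. Without APC-deleted replicate 1, 2 or 3 or APC-intact replicate 1 or 3 only 1 of them fell. Of 14 tested Wnt feedback and target genes 6 rose and 2 fell, 57.1% called. Their log2 differences ran from -5.72 to 1.27. At a log2 size of at least 1, 1 of them was higher and 2 were lower. Of 13 tested destruction complex genes 3 rose and 1 fell, 30.8% called, and the 1 that fell was Apc itself (log2 difference -0.57).

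Guidance molecules and adhesion receptors differed in both directions. Of 25 tested semaphorins, plexins and neuropilins 7 rose and 9 fell, 64.0% called beside 26.9% of all tested genes, with a median of -0.01 that lay between -0.07 and 0.03 when single libraries were left out. Sema3f, a secreted class 3 semaphorin, had 10.7, 9.59 and 9.86 CPM in APC-deleted cells, against 1.82, 1.63 and 1.40 CPM in APC-intact cells (log2 difference 2.63 ± 0.11, adjusted p = 8.99e-13). Sema3c, of the same class, had 19.6, 19.3 and 16.8 CPM in APC-deleted cells, against 6.39, 5.72 and 5.31 CPM in APC-intact cells (log2 difference 1.68 ± 0.093, adjusted p = 3.8e-11). Both were higher in each APC-deleted library than in any APC-intact one. The membrane-bound members Sema4g and Sema4b fell by 1.94 and 0.37, and Sema7a, which is held by a lipid anchor, had 3.24 ± 0.562 CPM in APC-deleted cells and 6.68 ± 0.156 CPM in APC-intact cells (log2 difference -1.05 ± 0.12, adjusted p = 9.16e-07). Plxnd1, a semaphorin receptor, rose by 0.35.

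Of 11 tested cadherins 4 rose and 2 fell, 54.5% called beside 26.9% of all tested genes. Cdh10, a type II cadherin, had 2.41, 2.18 and 2.11 CPM in APC-deleted cells, against 0.382, 0.406 and 0.382 CPM in APC-intact cells (log2 difference 2.51 ± 0.30, adjusted p = 3.51e-06). Cdh17, the intestinal cadherin, had 5.74 ± 0.146 CPM in APC-deleted cells and 3.04 ± 0.0759 CPM in APC-intact cells (log2 difference 0.92 ± 0.10, adjusted p = 1.16e-06). Cdh5 fell by 0.98. Of 17 tested protocadherins 4 rose and 6 fell, 58.8% called, and all 6 that fell belong to the clustered beta and gamma protocadherins on chromosome 18. Pcdh10 on chromosome 3 had 5.07, 4.59 and 4.66 CPM in APC-deleted cells, against 1.201, 1.197 and 1.13 CPM in APC-intact cells (log2 difference 2.02 ± 0.12, adjusted p = 1.67e-10). Pcdhb16, of the clustered beta protocadherins on chromosome 18, had 1.08, 0.986 and 0.865 CPM in APC-deleted cells, against 3.14, 2.75 and 3.62 CPM in APC-intact cells (log2 difference -1.70 ± 0.17, adjusted p = 1.67e-07). Its neighbours Pcdhb5 and Pcdhb15 fell by 1.80 and 1.40. Reads that aligned to more than 1 place were left out, so counts of the similar cluster members may lack shared reads.

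Of 20 tested integrins 8 rose and 3 fell, 55.0% called beside 26.9% of all tested genes. Itga11, a collagen-binding chain, rose by 1.93, Itga1, another collagen-binding chain, by 0.91, and Itgb3, the beta chain of the vitronectin receptor, by 0.54. Without APC-deleted replicate 3 or APC-intact replicate 3 only 1 integrin was called lower. Of 13 tested claudins and other tight junction genes 1 rose and 6 fell, 53.8% called, and Cldn9 fell by 1.11. The list's median was -0.03, but it lay between -0.59 without APC-intact replicate 3 and 0.01 without APC-deleted replicate 2. Without APC-deleted replicate 1, 2 of these genes were called higher.

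Matrix genes moved in both directions. Of 24 tested collagens 6 rose and 6 fell, beside 13% and 13.9% of all tested genes. Col12a1, a fibril-associated collagen, had 33.3, 33.5 and 31.8 CPM in APC-deleted cells, against 7.69, 5.36 and 8.53 CPM in APC-intact cells (log2 difference 2.19 ± 0.14, adjusted p = 2.17e-09). Col6a3, the large chain of the beaded-filament collagen, had 4.55, 5.24 and 4.78 CPM in APC-deleted cells, against 61.9, 49.4 and 72.8 CPM in APC-intact cells (log2 difference -3.66 ± 0.17, adjusted p = 6.54e-10). The groups lay apart in both genes and in opposite directions. Col7a1, which forms anchoring fibrils, had 13.7 ± 1.13 CPM in APC-deleted cells and 33.3 ± 4.33 CPM in APC-intact cells (log2 difference -1.29 ± 0.12, adjusted p = 1.59e-07), and Col5a3 had 21.5 ± 1.15 CPM in APC-deleted cells and 40.7 ± 2.34 CPM in APC-intact cells (log2 difference -0.92 ± 0.064, adjusted p = 1e-09). Serpinf1, which encodes pigment epithelium-derived factor, had 47.5 ± 1.15 CPM in APC-deleted cells and 17.3 ± 1.66 CPM in APC-intact cells (log2 difference 1.46 ± 0.074, adjusted p = 9.87e-12).

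Several matrix metalloproteinases were higher and Mmp2 was far lower. Of 13 tested metalloproteinases and their TIMP inhibitors 7 rose and 2 fell, beside 13% and 13.9% of all tested genes. Without APC-deleted replicate 2 or 3 or APC-intact replicate 1 or 3 the only lower call was Mmp2, since Mmp23 lost its call, and without APC-deleted replicate 1 the lower calls were 3. Many of these genes are known AP-1 targets in cultured cells, and the windows of 3 neighbours on chromosome 9 are shown because each holds the motif TGAGTCA or its reverse complement TGACTCA, in capitals. Each runs over the 250 bases before the annotated start on the plus strand, from RefSeq on GRCm38.p6. Mmp10 lies at chr9:7502092-7502341, Mmp13 at chr9:7272264-7272513 and Mmp3 at chr9:7445572-7445821.
Mmp10: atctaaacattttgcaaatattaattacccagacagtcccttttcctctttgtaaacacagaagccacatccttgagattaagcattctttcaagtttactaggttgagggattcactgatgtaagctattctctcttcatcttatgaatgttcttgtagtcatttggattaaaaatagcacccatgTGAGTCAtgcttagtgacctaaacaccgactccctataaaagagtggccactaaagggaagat
Mmp13: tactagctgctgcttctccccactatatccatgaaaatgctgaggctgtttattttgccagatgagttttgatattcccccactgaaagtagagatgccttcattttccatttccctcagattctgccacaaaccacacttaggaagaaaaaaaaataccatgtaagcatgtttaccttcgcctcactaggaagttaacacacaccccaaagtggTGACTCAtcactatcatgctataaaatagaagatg
Mmp3: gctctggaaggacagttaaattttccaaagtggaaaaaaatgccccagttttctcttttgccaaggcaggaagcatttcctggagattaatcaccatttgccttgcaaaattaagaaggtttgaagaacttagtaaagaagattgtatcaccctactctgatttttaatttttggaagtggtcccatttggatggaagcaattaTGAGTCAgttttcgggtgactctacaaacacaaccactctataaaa

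The motif began 63 bases before the Mmp10 start, 35 before that of Mmp13 and 46 before that of Mmp3. Both strands were searched. It stood in 4 of the 10 windows found for tested metalloproteinases and TIMPs, and in 3 of the 6 windows of members called higher. Over all tested genes with a window, 3.22% held it, as did 3.98% of those called higher and 4.31% of those called lower. A match describes the letters only.

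Mmp10, stromelysin-2, had 7.69, 8.49 and 10.3 CPM in APC-deleted cells, against 2.17, 2.80 and 2.20 CPM in APC-intact cells (log2 difference 1.88 ± 0.13, adjusted p = 1.87e-09). Mmp13, a collagenase, had 7.21, 7.44 and 7.55 CPM in APC-deleted cells, against 3.69, 3.69 and 3.19 CPM in APC-intact cells (log2 difference 1.07 ± 0.13, adjusted p = 3.33e-06). Mmp9, the other gelatinase beside Mmp2, had 4.52, 4.18 and 5.13 CPM in APC-deleted cells, against 2.27, 2.49 and 1.90 CPM in APC-intact cells (log2 difference 1.05 ± 0.15, adjusted p = 1.67e-05). All 3 were higher in each APC-deleted library than in any APC-intact one, while Mmp2 was under 1 CPM there. Mmp3, stromelysin-1, had 1.93, 1.45 and 1.64 CPM in APC-deleted cells, against 1.21, 1.09 and 0.920 CPM in APC-intact cells (log2 difference 0.64 ± 0.19, adjusted p = 0.0151), and its call was lost without APC-deleted replicate 1 (adjusted p = 0.0746) or APC-intact replicate 3 (adjusted p = 0.0838). Timp3, an inhibitor that binds to matrix and lies partly over Syn3 on the other strand, rose by 1.52. Adam19, a membrane-bound sheddase, had 51.4, 53.9 and 50.9 CPM in APC-deleted cells, against 13.9, 12.4 and 13.6 CPM in APC-intact cells (log2 difference 1.97 ± 0.068, adjusted p = 2.87e-14). Adam17, the main TNF sheddase, rose by 0.26 and lies partly over Iah1.

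**Figure D3:**
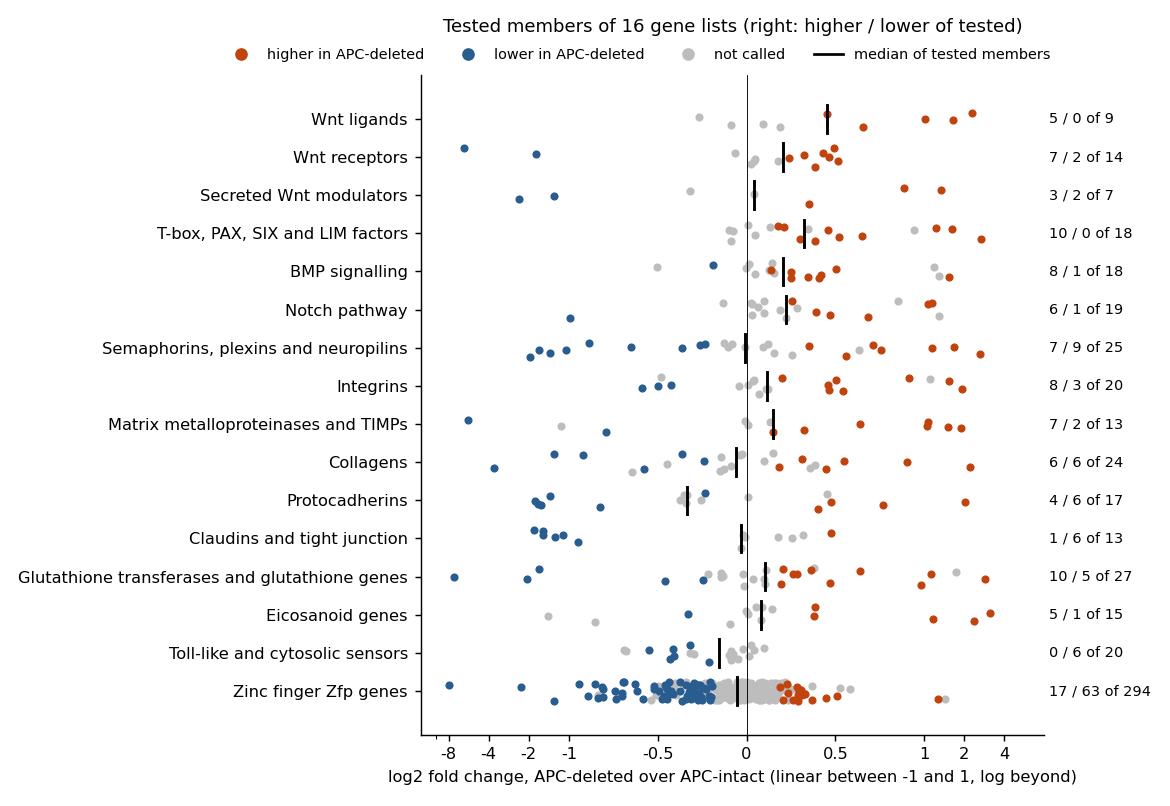
Each row is a gene list, each point the log2 difference of APC-deleted over APC-intact untreated cells for 1 tested member, coloured by call, with the list's median as a bar and a symmetric log axis. In most lists called members lie on both sides of 0, and the T-box, PAX, sine oculis and LIM factors and the Wnt ligands hold no called member below 0.

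Growth factor genes changed as single ligands and receptors. Egfr, the EGF receptor, had 103, 119.5 and 111 CPM in APC-deleted cells, against 59.4, 51.6 and 57.5 CPM in APC-intact cells (log2 difference 0.99 ± 0.082, adjusted p = 1.89e-08). Btc, which encodes its ligand betacellulin, had 0.377, 0.415 and 0.299 CPM in APC-deleted cells, against 1.78, 2.37 and 1.88 CPM in APC-intact cells (log2 difference -2.46 ± 0.20, adjusted p = 1.26e-08). Receptor and ligand lay apart in opposite directions. Vegfc, a growth factor of lymphatic vessels, had 20.8, 19.8 and 23.0 CPM in APC-deleted cells, against 10.2, 9.84 and 9.66 CPM in APC-intact cells (log2 difference 1.10 ± 0.081, adjusted p = 2.52e-09). Flt1, a VEGF receptor, and Angpt1, a ligand of the TIE2 receptor, rose by 1.03 and 1.18, while Angpt2, the other TIE2 ligand, fell by 1.22. Hgf, the ligand of MET, fell too, with 0.479 ± 0.110 CPM in APC-deleted cells and 1.35 ± 0.107 CPM in APC-intact cells. Of 18 tested genes of the PDGF, VEGF, HGF, KIT and angiopoietin families 5 rose and 4 fell, 50% called beside 26.9% of all tested genes.

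Of 19 tested Notch pathway genes 6 rose and 1 fell, 36.8% called beside 26.9% of all tested genes. Dll1, a Delta ligand, had 8.63, 8.73 and 8.26 CPM in APC-deleted cells, against 3.79, 3.65 and 4.08 CPM in APC-intact cells (log2 difference 1.15 ± 0.093, adjusted p = 1.04e-08). Jag2, a Jagged ligand, had 4.78, 4.73 and 5.79 CPM in APC-deleted cells, against 2.59, 2.15 and 2.58 CPM in APC-intact cells (log2 difference 1.06 ± 0.14, adjusted p = 5.98e-06). The coactivator Maml2, the member called lower, fell by 0.99. Leaving out APC-deleted replicate 3, or APC-intact replicate 2 or 3, left 4 genes called higher. Dll1 lies partly over A930024N18Rik on the other strand. Of 18 tested BMP genes 8 rose and 1 fell, 50% called, and without APC-deleted replicate 2 or APC-intact replicate 1 or 3 none fell. The ligand Bmp4 rose by 0.42, and the secreted antagonists Chrd and Grem1 rose by 0.50 and 0.25, where Chrd lies partly over Thpo. Of 23 tested Hippo pathway genes 5 rose and none fell, and the 21.7% called lies below the share of all tested genes.

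T-box and several homeobox families of developmental factors held calls in 1 direction. Of 18 tested T-box, PAX, sine oculis and LIM homeobox factors 10 rose and none fell, with a median of 0.32, beside 13% of all tested genes called higher and a median of -0.01. Lhx9, a LIM factor of gonad and limb development, had 1.51, 1.25 and 1.35 CPM in APC-deleted cells, against 0.109, 0.288 and 0.238 CPM in APC-intact cells (log2 difference 2.68 ± 0.29, adjusted p = 6.17e-07). Tbx2, a T-box repressor, had 3.36, 3.53 and 2.93 CPM in APC-deleted cells, against 1.11, 1.56 and 1.52 CPM in APC-intact cells (log2 difference 1.23 ± 0.18, adjusted p = 2.6e-05). No library overlapped in either, though both were low. Pax5, Isl1, Pax3 and Six4 rose by 1.61, 0.65, 0.52 and 0.46. Gata6, an endoderm factor whose gene lies on chromosome 18, had 2.41, 2.97 and 2.45 CPM in APC-deleted cells, against 9.07, 8.61 and 8.56 CPM in APC-intact cells (log2 difference -1.74 ± 0.12, adjusted p = 5.46e-10). Of 29 tested Hox genes 4 rose and 6 fell, 34.5% called.

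Of 294 tested Zfp zinc finger genes 17 rose and 63 fell, with a median of -0.05. The 27.2% called is close to the 26.9% of all tested genes, and by direction 13% of all tested genes rose and 13.9% fell. The count moved with single libraries. Higher calls were 10 or 11 without APC-deleted replicate 3 or APC-intact replicate 2 or 3, and lower calls between 38 and 41 without APC-deleted replicate 2 or 3 or APC-intact replicate 2. Among imprinted genes, H19, a noncoding RNA expressed from the maternal copy, had 1.78, 1.47 and 2.37 CPM in APC-deleted cells, against 0.743, 0.577 and 0.754 CPM in APC-intact cells (log2 difference 1.44 ± 0.31, adjusted p = 0.00151). Igf2, its paternally expressed neighbour on chromosome 7, had 10.0, 11.2 and 12.5 CPM in APC-deleted cells, against 18.8, 17.03 and 17.5 CPM in APC-intact cells (log2 difference -0.66 ± 0.077, adjusted p = 1.71e-06). The groups lay apart in both. Igf2 lies partly over Igf2os on the other strand.

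Of 28 tested cyclins, CDKs and CDK inhibitors 3 rose and 3 fell, 21.4% called beside 26.9% of all tested genes. Ccnd2, cyclin D2, had 143, 152 and 143 CPM in APC-deleted cells, against 59.5, 58.9 and 58.6 CPM in APC-intact cells (log2 difference 1.31 ± 0.058, adjusted p = 1.42e-12). Cdkn2d, the CDK inhibitor p19, had 14.3, 16.8 and 18.2 CPM in APC-deleted cells, against 34.7, 32.8 and 34.7 CPM in APC-intact cells (log2 difference -1.05 ± 0.086, adjusted p = 1.32e-08). Each group of libraries stood clear of the other. Of 26 tested DNA methylation and Polycomb genes 5 rose and 1 fell, 23.1% called, where Dnmt3a and Dnmt3b, the DNA methyltransferases that set new marks, rose by 0.37 and 0.39, and Uhrf1, which helps to copy marks at replication, fell by 0.25.

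Prostaglandin genes were among the called metabolic genes. Of 15 tested eicosanoid genes 5 rose and 1 fell, 40.0% called beside 26.9% of all tested genes, and none fell without APC-deleted replicate 2 or APC-intact replicate 1. Ptgs2, the inducible cyclooxygenase, had 1331, 1432 and 1336 CPM in APC-deleted cells, against 1061, 1038 and 1044 CPM in APC-intact cells (log2 difference 0.38 ± 0.087, adjusted p = 0.00247). Ptgir, the prostacyclin receptor, had 1.29, 1.67 and 1.597 CPM in APC-deleted cells, against 0.328, 0.192 and 0.372 CPM in APC-intact cells (log2 difference 2.35 ± 0.23, adjusted p = 1.37e-07). Ptger4, a receptor for prostaglandin E that lies partly over Ttc33 on the other strand, had 1.24, 1.59 and 1.69 CPM in APC-deleted cells, against 0.743, 0.673 and 0.610 CPM in APC-intact cells (log2 difference 1.16 ± 0.18, adjusted p = 5.12e-05). With Ptgis above, the cyclooxygenase, the prostacyclin synthase and its receptor were each higher in all 3 APC-deleted libraries, and the importer Slco2a1 was lower in all 3.

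Of 27 tested glutathione genes 10 rose and 5 fell, beside 13% and 13.9% of all tested genes. Gsta4, which conjugates the lipid peroxidation product hydroxynonenal, had 32.4, 33.3 and 34.9 CPM in APC-deleted cells, against 4.35, 5.20 and 4.30 CPM in APC-intact cells (log2 difference 2.86 ± 0.094, adjusted p = 1.77e-14). Gstm1, a mu-class transferase, had 153, 159 and 173 CPM in APC-deleted cells, against 83.7, 87.1 and 74.7 CPM in APC-intact cells (log2 difference 0.98 ± 0.072, adjusted p = 2.43e-09). The theta class ran the other way. Gstt2 had 1.68, 1.11 and 1.25 CPM in APC-deleted cells, against 5.60, 6.17 and 5.16 CPM in APC-intact cells (log2 difference -2.06 ± 0.16, adjusted p = 7.74e-09). Gstt1 and Gstt3, its neighbours on chromosome 10, fell by 1.69 and 0.46. Ggt1, on the same chromosome, encodes the enzyme that breaks down extracellular glutathione and had 4 counts in APC-deleted libraries, against 666 counts in APC-intact libraries.

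Of 30 tested retinoid and aldehyde dehydrogenase genes 10 rose and 5 fell, beside 13% and 13.9% of all tested genes. Cyp26b1, which degrades retinoic acid, had 2.22, 2.02 and 2.66 CPM in APC-deleted cells, against 1.23, 0.844 and 0.889 CPM in APC-intact cells (log2 difference 1.22 ± 0.18, adjusted p = 4.82e-05). Stra6, a receptor that takes up retinol, had 1.65, 1.26 and 1.19 CPM in APC-deleted cells, against 2.90, 2.95 and 3.05 CPM in APC-intact cells (log2 difference -1.12 ± 0.16, adjusted p = 2.32e-05). The groups lay apart in both. Dhrs3, a retinal reductase, rose by 0.53, and Crabp2, a retinoic acid carrier, fell by 0.40. Of 26 tested glucose transport and glycolysis genes 4 rose and 13 fell, and 2 rose without APC-deleted replicate 2 or 3. Their summed level was 7784 to 8304 CPM in APC-deleted cells and 9716 to 10117 CPM in APC-intact cells. Among them, the lactate dehydrogenase chain Ldhb had 29.7 ± 0.920 CPM in APC-deleted cells and 16.3 ± 1.22 CPM in APC-intact cells (log2 difference 0.87 ± 0.065, adjusted p = 3.27e-09), whereas the chain Ldha had 619 ± 14.3 CPM in APC-deleted cells and 819 ± 21.4 CPM in APC-intact cells (log2 difference -0.40 ± 0.055, adjusted p = 1.36e-05). Kcnab2, a potassium channel beta subunit, had 55.5, 52.9 and 51.9 CPM in APC-deleted cells, against 24.8, 24.3 and 25.2 CPM in APC-intact cells (log2 difference 1.11 ± 0.052, adjusted p = 2.85e-12), and 7 of 18 tested potassium channel genes rose and 2 fell, 50% called. The median of that list was 0.30, but 0.18 without APC-deleted replicate 2, 0.01 without APC-deleted replicate 3 and 0.03 without APC-intact replicate 2.

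Of 11 tested costimulatory and checkpoint genes 4 rose and 3 fell, beside 13% and 13.9% of all tested genes. Pvr, a ligand of TIGIT and CD226, had 286, 339 and 319 CPM in APC-deleted cells, against 239, 241 and 230.4 CPM in APC-intact cells (log2 difference 0.41 ± 0.059, adjusted p = 2.28e-05). Its relative Pvrl2 and the B7-family gene Cd276 rose by 0.26 and 0.18. Havcr2 and Tigit, inhibitory receptors of T cells, fell by 1.45 and 0.29. Of 20 tested Toll-like and cytosolic sensors none rose and 6 fell, beside 13.9% of all tested genes called lower. Between 4 and 6 of these genes were called lower when single libraries were left out, and 4 were without APC-deleted replicate 2 or 3 or APC-intact replicate 1. Tlr2 and Tlr6, which form a receptor for bacterial lipoproteins, fell by 0.41 and 0.43. Nlrc5, the activator of MHC class I genes, had 23.7, 20.6 and 20.9 CPM in APC-deleted cells, against 30.6, 30.1 and 34.9 CPM in APC-intact cells (log2 difference -0.55 ± 0.088, adjusted p = 8.68e-05), and it lies partly over 9330175E14Rik on the other strand. C3, the central complement protein, had 89.4 ± 1.05 CPM in APC-deleted cells and 147 ± 11.3 CPM in APC-intact cells (log2 difference -0.71 ± 0.067, adjusted p = 8.22e-08).

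**Figure D4:**
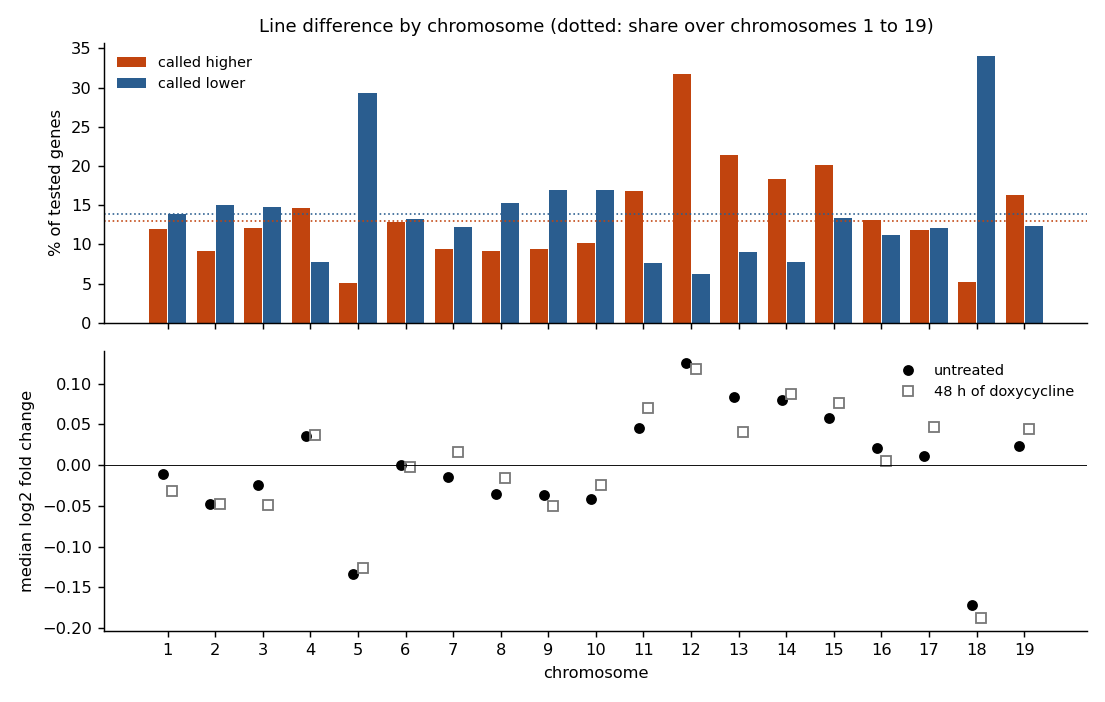
For chromosomes 1 to 19 the upper panel gives the percent of tested genes called higher and lower in APC-deleted untreated cells, and the lower panel the median log2 difference in untreated cells and at 48 h. Chromosomes 5 and 18 have the most lower calls, at 29.3% and 34.0%, and chromosome 12 the most higher calls, at 31.7%.

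Calls were uneven along the genome. On chromosome 5, 29.3% of 935 tested genes were called lower and 5.13% higher, and the median was -0.13 in untreated cells and -0.13 at 48 h. On chromosome 18, which carries Apc, 34.0% of 385 tested genes were called lower and 5.19% higher, with medians of -0.17 and -0.19 in the same order. Chromosome 12 ran the other way, with 31.7% of 501 tested genes higher and 6.19% lower and a median of 0.12 in both sets. All 3 chromosomes thus kept their direction in the separate libraries, and their DNA copy number was not measured. In overlapping windows of 50 neighbouring tested genes the lowest median was -0.31, at chr17:17830719-24045954 with 1 gene higher and 19 lower, and there it was -0.37 at 48 h. The highest was 0.38, at chr13:21945094-28258094 with 13 higher and 1 lower, and there it was 0.47 at 48 h. Apc, the Pcdhb genes named above and Gata6 lie on chromosome 18, and Btc, Sod3 and Hgf lie on chromosome 5. Only genes that were lower are listed here, and genes named above as higher may lie on the same chromosomes. The part of those chromosome-wide differences in the values of single genes was not tested.

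**Figure D5:**
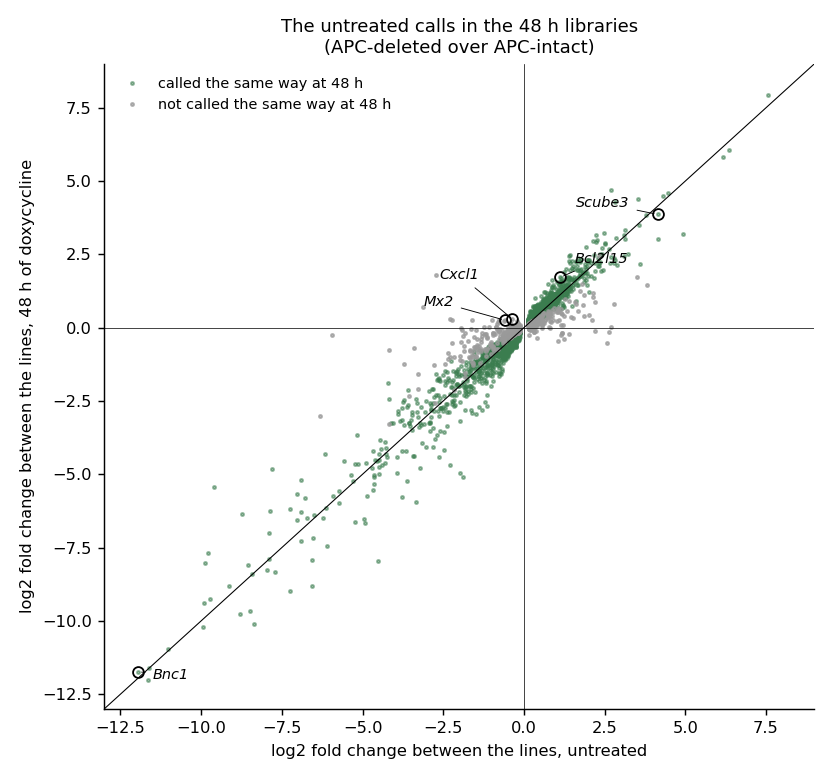
Each of the 3896 genes called in untreated cells is a point, with its log2 difference of APC-deleted over APC-intact in untreated libraries on the horizontal axis and in 48 h libraries on the vertical axis. Of these genes, 3822 have the same sign in both sets, and Bcl2l15, Cxcl1 and Mx2 are the genes whose difference itself differed between the sets.

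The line difference was measured again in the 48 h libraries, which share no sample with the untreated ones. There 5001 genes were called, 34.5% of those tested. Called in both sets in the same direction were 3116 genes, 80.0% of the untreated calls and 62.3% of the 48 h calls, or 21.5% of all tested genes. Called in opposite directions were 6 genes, Bcl3, Bmp2, Cxcl1, Egln3, Gdnf and Mx2. Of the 717 called genes with a log2 size of at least 1 in untreated cells, 591 were called the same way at 48 h. Lrrn4cl differed by 3.84, Scube3 by 3.86, Mmp2 by -5.97 and Epb4.1l3 by -9.76 on the log2 scale at 48 h, each in its untreated direction. The difference between sets itself was called for 3 genes, 0.0207% of those tested, by edgeR's quasi-likelihood test with Benjamini-Hochberg adjustment.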

How the data were processed

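The authors deposited 1 table of raw read counts per gene for each of the 18 libraries, with gene coordinates and symbols. STAR, HTSeq and the mm10 build are named per the submitters' processing notes, and versions, strand setting and annotation release are not given in the sources used here. Entries that name no gene held 22.9% to 25.5% of the counts and were left out.

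From the deposited counts, edgeR 4.0.16 in R 4.3.3 was fitted to all 18 libraries with 1 coefficient for each group (TMM factors, filterByExpr by group, robust quasi-likelihood dispersions), and p-values were adjusted by the Benjamini-Hochberg method over the 15006 tested genes, chromosome X included. The script was tested on simulated data. Total gene counts over the 18 libraries ran from 71970499 to 111948430. Replicates of a group differed by more than counting noise and each was kept. CPM were computed here.

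Genes named in the text were chosen by the rules below, besides those picked as stated where they appear. The 25 largest differences each way and the largest each way of each chromosome came from called genes with at least 5 CPM in the higher group and no overlap between groups. List members needed no minimum level and could overlap. For each of 70 gene lists they were up to 8 called members of smallest adjusted p and the called members that go against their list's majority. All tested members of lists with at most 8 tested were added, as were Apc, Ctnnb1 and Tdo2. Of the 502 genes so named, 64 overlap another tested gene. The members and lists were chosen with earlier results of these data known.

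Alternatives were DESeq2 1.42.0, RLE factors, no filter, a replicate block, a fit of only the groups compared, chromosome X left out, a minimum log2 size of 1, and leaving out each library. Figures were drawn with matplotlib 3.10.9.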

Additional observations from a re-analysis of the deposited data

Results flagged for a closer look

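The line difference at 48 h differed from that in untreated cells for 3 genes by edgeR's quasi-likelihood test of the difference itself, with Benjamini-Hochberg adjustment. Mx2, an interferon-induced antiviral GTPase, had a log2 difference of APC-deleted over APC-intact of 0.25 at 48 h and -0.58 in untreated cells, a change of 0.83 (adjusted p = 0.0361). Cxcl1, a neutrophil chemokine, had 0.31 at 48 h and -0.38 in untreated cells, a change of 0.68 (adjusted p = 0.0361). Bcl2l15, a BCL2-family gene, had 1.71 at 48 h and 1.12 in untreated cells, a change of 0.59 (adjusted p = 0.0452). Mx2 and Cxcl1 thus changed direction between the sets, whereas Bcl2l15 was higher in APC-deleted cells in both. Doxycycline, the hairpin and the run designation differ between the sets together and cannot be told apart.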

How the results depend on the processing

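The counts of 1877 higher, 2019 lower and 3116 shared calls stayed within 1.5 times under DESeq2 (2092, 2155 and 3386), RLE factors, no filter and chromosome X left out. They also did in a fit of only the groups compared, which gave 2753 higher, 2685 lower and 2967 shared calls. Requiring a log2 size of at least 1 left 259 higher, 458 lower and 538 shared calls and 0 genes whose line difference itself differed between the sets, since fewer genes meet it. Leaving out 1 library gave 1425 to 1754 higher, 1384 to 1647 lower, 2482 to 3153 shared and 0 to 3 differing genes. The 3 differing genes became 55 with DESeq2, 13 without a filter and 0 in the fit of only the groups compared, and the cause was not tested. Same-numbered libraries were not paired (correlations of deviations 0.015, 0.015 and 0.053), and a replicate block gave 1986 higher, 2082 lower, 3228 shared and 2 differing genes. No result reversed its direction while called. Of the 502 named genes, 500 kept their side of the threshold with DESeq2 and 477 in the fit of only the groups compared. Leaving out 1 library kept fewer, with the lowest numbers 447 without APC-deleted replicate 3 and 449 each without APC-deleted replicate 2 and without APC-intact replicate 2. Tdo2 had few counts. Its log2 difference of -0.46 (adjusted p = 0.529) ran from -1.13 to -0.05 when single libraries were left out, so no difference in Tdo2 was detectable between the untreated lines.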

Other observations

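All values here are of untreated cells by the same test. Of 33 tested ABC transporters 10 rose and 5 fell, beside 13% and 13.9% of all tested genes. Abca12, a lipid transporter of the skin barrier, had 0.410, 0.311 and 0.188 CPM in APC-deleted cells, against 0, 0.0748 and 0.0620 CPM in APC-intact cells (log2 difference 2.69 ± 0.61, adjusted p = 0.00119). The groups did not overlap. Abcc1 and Abcc4, which export organic anions and drug conjugates, rose by 0.32 and 0.36, and Abcd2, a peroxisomal transporter of very long chain fatty acids, fell by 1.14.

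Of 23 tested TNF ligands and receptors 2 rose and 4 fell, 26.1% called, close to the 26.9% of all tested genes. Tnfrsf9, which encodes the receptor 4-1BB, fell by 0.84, and Tnfrsf10b, the mouse TRAIL receptor, rose by 0.31. Of 22 tested serpins 6 rose and 9 fell, 68.2% called. Serping1, the inhibitor of complement C1, had 2.16, 2.19 and 2.18 CPM in APC-deleted cells, against 1.03, 0.833 and 0.713 CPM in APC-intact cells (log2 difference 1.34 ± 0.23, adjusted p = 1.72e-04). Serpinb1a, an inhibitor of neutrophil elastase, had 0.701, 0.706 and 0.699 CPM in APC-deleted cells, against 1.03, 1.53 and 1.29 CPM in APC-intact cells (log2 difference -0.87 ± 0.17, adjusted p = 8.26e-04). These 2 inhibitors lay apart between the groups in opposite directions. Of 20 tested forkhead factors 3 rose and 1 fell, 20% called and so below the share of all tested genes, and the 1 that fell was Foxp2, by 1.06.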
